A study of Gallus gallus with 14 samples.

Results

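The loci described here are stretches of the chicken autosomes that produced piRNAs in blastodermal cells and again in later germ cells or gonads. Clusters called by proTRAC in 8 small RNA libraries were merged wherever they overlapped by at least 1 bp. A merged locus on an assembled autosome became a member if it held a cluster in at least 1 blastodermal library and at least 1 later library. There were 215 members among 4034 merged loci, or 5.33% of them, and among 1231 autosomal loci. Of the other autosomal loci, 321 were called only in blastodermal cells and 695 only in later stages.

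The study followed male germ line piRNAs in chicken embryos, with small RNA treated with periodate, which leaves the 3′ methylated piRNAs ligatable, and 2 libraries per stage. Blastodermal cells (BC) came from fresh fertilized Leghorn eggs. E7PGC were cultured male primordial germ cells of E7 gonads from Arbor Acres broilers, E11G and E14G were whole male gonads, and in both gonad stages replicate 1 came from Cobb 500 and replicate 2 from Leghorn chickens. RNA-seq was done in 2 libraries each of BC, E11G and E14G from JA57 chickens. Each library pooled several embryos or gonads, or came from cultured cells. E7PGC differed from the other stages in breed and in culture at once, which cannot be told apart from stage. BC shared its breed with the second gonad libraries, and in the gonads breed also goes with the sequencer. In bulk samples such as these, fewer cells of a type and less RNA per cell cannot be told apart.

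PiRNAs are small RNAs bound by PIWI proteins, which silence transposable elements in animal germ lines. Many are cut from long precursors that are transcribed from genomic clusters. Mono-directional clusters give piRNAs from 1 strand, bi-directional clusters from both sides of a shared start, and dual-strand clusters from both strands over the same stretch. A primary piRNA tends to start with uracil, read as 1T in the libraries, and a partner made by the ping-pong cycle tends to carry adenine at base 10 (10A).

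The cluster lists also name short matches to binding motifs of A-MYB and RFX4. A-MYB (MYBL1) is known from mouse testis as the factor that switches on pachytene piRNA precursors. A match is given as a description of the letters within a called cluster, the pattern behind the search is not given in the sources used here, and positions were counted as the cluster start plus the listed offset. A selection of the matches in members described later is shown, with only a few of the more frequent RFX4 matches, and with the core in capitals, AACTG or its reverse complement CAGTT for A-MYB, AACCG for the list's MYBL1 motif and GTTGC or its reverse complement GCAAC for RFX4.
chr1:171176429-171208999, A-MYB: aggCAGTTgg
chr1:20258223-20289985, A-MYB: ccAACTGtct
chr1:20258223-20289985, MYBL1: AACCGtta
chr4:13737012-13753563, MYBL1: AACCGtta
chr1:54773039-54799945, A-MYB: ccAACTGtca
chr1:67318408-67331008, A-MYB: aggCAGTTgg
chr1:192821320-192877904, A-MYB: ccAACTGcct
chr5:53849008-53885999, A-MYB: ccAACTGtca
chr1:20258223-20289985, RFX4: GTTGCcagg
chr1:171176429-171208999, RFX4: GTTGCtaag
chr14:14309551-14332693, RFX4: cttaGCAAC

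An A-MYB match was listed in 15 members, or 6.98%, and in 6.40% of the other 1016 autosomal loci. Per length the order was the opposite, with 6.50 matches per Mb of member and 9.48 per Mb of the others. The first RFX4 motif was listed in 28.4% of the members and 24.02% of the other autosomal loci, and the second in 26.5% and 25.7%. Per length these orders were also the opposite, with 33.7 and 37.0 matches per Mb of member and 41.9 and 42.2 per Mb of the others. Among the 41 members called in all 8 libraries, 7 held an A-MYB match. These 41 were also longer, with a median of 17384 bp against 7634 bp for all members. The A-MYB match in the most highly covered locus, chr1:171176429-171208999, lay 2.85 kb from its lowest coordinate, and its RFX4 match lay 23.1 kb from it. The hits of this locus in BC were on the minus strand, so these are not distances from a 5′ end.

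Depth and thresholds differed between libraries and bear on every level below. The lists rest on 6336239 and 6381706 reads in BC, 7925928 to 10786087 in E7PGC, 1394576 and 1658418 in the first libraries of E11G and E14G, and 7872371 and 8869224 in their second libraries. A level is the sum of normalized hits over a locus, in which a read counts in equal fractions at each of its genomic places and the list's reads set the scale (RPM). A cluster had to reach 2.21 to 2.32 RPM per kb in BC but 7.95 to 13.3 RPM per kb in the later libraries. The lowest called member therefore stood at 11.2 RPM in BC1 and 66.97 RPM in E14G1. Where a library made no call at a locus there is no value, which is not the same as no piRNAs. The rule admitted a locus by overlap alone. The smallest overlap between BC and later calls among members was 1615 bp, at chr2:54585583-54600009, and just outside the rule a BC-only locus at chr1:155493216-155496227 lay 1265 bp from a later-only one.

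Most members were called repeatedly. Both BC libraries called 182 of the 215, at least 1 E7PGC library called 155, at least 1 E11G library 158 and at least 1 E14G library 120. Calls in all 4 stages were made at 72 members, and 41 members were called in every library. Another 46 were called in BC, E7PGC and E11G but not in E14G, and 30 only in BC and E7PGC. At the rule's edge, 7 members had exactly 1 BC and exactly 1 later call. E11G2 called 154 members and E11G1, the shallower library, 89, while E14G2 called 110 and E14G1 80.

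BC and later calls covered much of the same sequence, of which some was required by the rule, so the values are a description. The median member had 5720 bp called in BC and 6411 bp called later, and its later calls covered all of its BC bases, a median of 100%. The BC calls covered a median of 81.8% of the later bases. Chromosome 1 held 68 members, chromosome 2 held 44, chromosome 4 held 24 and chromosome 3 held 21. Another member lay within 100000 bp of 52 members and within 500000 bp of 104. The same was not counted for the other autosomal loci. The largest runs of such neighbours held 8 members each, at chr2:52972023-53838447, chr4:19391925-20788991 and chr5:2655152-3992739. Of the 41 members called in all libraries, 9 started within 100000 bp of the first base of their chromosome in the assembly, and 1 of the other 174 members did. Among the other autosomal loci, 18 of 1016 did.

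BC drew a far larger share of its piRNAs from the members than any later library did. In BC1 37.2% and in BC2 38.4% of all list reads fell in them. The shares were 5.98% and 5.40% in E7PGC, 7.23% and 8.74% in E11G, and 6.06% and 7.18% in E14G. The BC libraries did not overlap with any later library. This excess sat in 3 loci, which held 89.8% and 90.4% of the members' RPM in BC1 and BC2. Outside the same 3 loci, members held 3.78% and 3.67% of all list reads in BC and 5.07% to 8.06% in the later libraries. The reads of the 3 loci stay in these totals. They made up 33.5% and 34.7% of all list reads in BC and 0.33% to 0.76% later. This lowers every other share in BC, so these values do not settle the order of BC and later libraries outside the 3 loci. These shares use calls that the rule used and were not tested.

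The highest locus, chr1:171176429-171208999, lies between FOXO1, which encodes a forkhead transcription factor 531 kb away, and UFM1, which encodes a ubiquitin-like modifier 358 kb away. It held 202085 RPM in BC1 and 205916 RPM in BC2, or 20.2% and 20.6% of all reads. In later libraries it held 150 and 41.4 RPM in E7PGC, 125 RPM in E11G1 and 592 RPM in E14G1, and it was not called in E11G2 or E14G2. Both later gonad calls were thus in the Cobb 500 libraries, the shallower ones. The BC calls ran over 32550 and 32525 bp with 100% of hits on the minus strand, while the later calls spanned between 4607 and 16938 bp on the same strand.

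The second locus, chr1:20258223-20289985, was called over nearly its whole length in every library. It fills the gap between TRABD, 2.06 kb away, and SELENOO, a selenoprotein gene 0.270 kb away. Its level was 99197 and 105110 RPM in BC, 3612 and 3210 in E7PGC, 7482 and 6839 in E11G, and 4452 and 3839 in E14G. In geometric means BC stood 18.8-fold above the 4 gonad libraries, the largest such difference among the members called in all 8 libraries. All 8 calls were mono-directional on the minus strand, with 99.0% to 100% of hits on that strand. The 1T share was 78.4% and 78.3% in BC and 67.2% to 73.0% later.

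The third locus, chr4:42288624-42292589, was a short stretch with few and very abundant sequences in BC. It held 33248 RPM in BC1 and 36077 RPM in BC2, and a single later library, E14G1, called it, at 68.7 RPM. Each hit stood for 1177 and 1339 normalized reads in BC, against 103 and 117 at chr1:20258223-20289985. In BC 97.3% and 97.7% of its hits began with T and 0.6% had 10A in both libraries. The fourth, chr1:185283331-185293772, overlaps the end of MTMR2, a phosphoinositide phosphatase gene. It fell outside the usual base pattern, with a 1T share of 25.5% and 25.0% in BC, and held 4347 and 4259 RPM there, 508 and 417 in E7PGC, 144 and 281 in E11G, and 169 in E14G2.

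**Figure D1:**
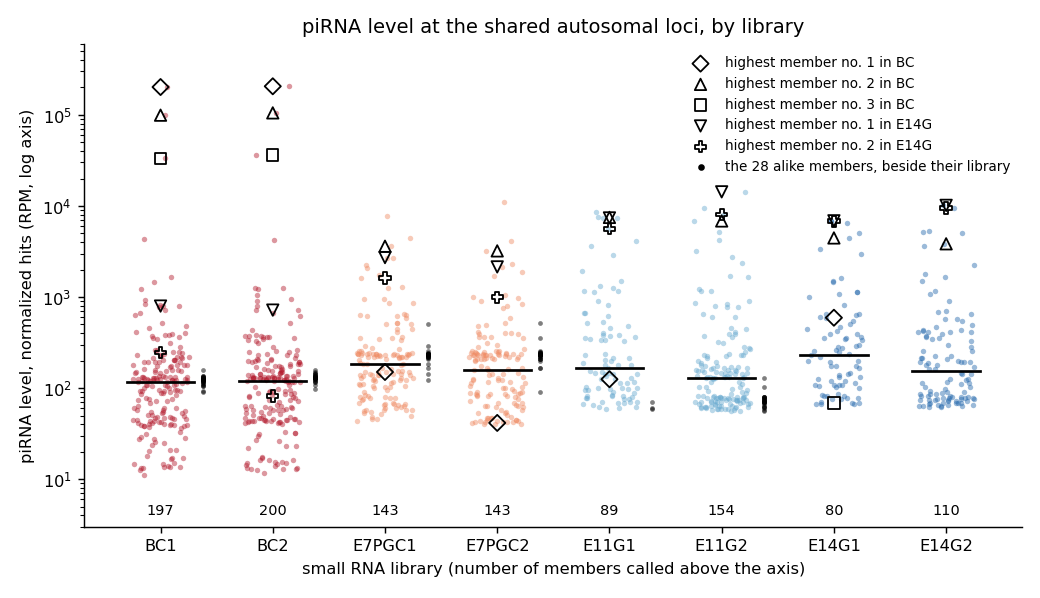
The piRNA level of each member (points, RPM on a log axis) is plotted for the 8 libraries, with the median as a bar, the number of members called above the axis and the 28 members with alike BC profiles as black points beside their library. The diamond, the triangle and the square at 33248 to 205916 RPM in BC mark the 3 members that hold 89.8% and 90.4% of the members' piRNAs there, and the inverted triangle and the cross mark the 2 members highest in E14G.

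Over the members as a whole, these loci included, differences between BC and the gonads went in both directions, with log2 values from -6.68 to 9.55. For the 185 members called in a gonad library, the mean log2 level in BC was compared with that in the called gonad libraries. The median difference was -0.45. At least 2-fold higher in BC were 41 members, where the share over all 515 loci with both kinds of call was 17.5%, and at least 2-fold lower were 72, where it was 56.3%. The rule used this contrast, so the counts are a description. With the second gonad libraries alone, of the same breed as BC, it was -0.44 over 175 members. The sign of the median depended on the scale, with -0.90 without E11G replicate 2, 0.53 when the same minimum density was asked of all libraries and 2.49 when libraries were scaled to an equal median over loci called in all 8. Against E7PGC 30 of 155 members were at least 2-fold higher in BC (14.3% of all loci) and 62 lower (52.5%). Against E11G the counts were 38 and 67 of 158 (18.8% and 58.3%), and against E14G 22 and 60 of 120 (10.8% and 68.5%).

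The 41 members called in every library were mostly lower in BC when measured in RPM. Their median log2 difference between BC and gonads was -2.64, with 4 at least 2-fold higher in BC and 31 at least 2-fold lower. With libraries scaled to an equal median the difference turned to 0.42, with 16 higher and 10 lower. These 41 are among the 176 loci that set this scale, so their median difference on it is in part fixed by the scaling. A call in all 8 libraries also asked for a higher density in the later libraries than in BC. The highest stage mean was that of BC at 7 of them, of E7PGC at 5, of E11G at 16 and of E14G at 13. Those high in BC after chr1:20258223-20289985 were chr1:154179973-154185999 and chr5:3986343-3992739. The former had 366 and 518 RPM in BC, 60.0 and 47.1 in E7PGC, 88.0 and 132 in E11G, and 107 and 127 in E14G. The latter had 396 and 377 RPM in BC, 57.0 and 47.5 in E7PGC, 212 and 229 in E11G, and 99.2 and 142 in E14G. At both, the BC libraries lay above all 6 later libraries and E7PGC was lowest.

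At the opposite end, 3 loci were short or low calls in BC and longer, richer clusters later. The locus chr1:54773039-54799945, 3.73 kb from the chaperone gene HSP90B1, had 39.8 and 43.6 RPM in BC, 2084 and 912 in E7PGC, 3593 and 5188 in E11G, and 3342 and 5358 in E14G. The geometric mean of the gonad libraries was 103-fold above that of BC. The BC calls covered 4110 and 4111 bp of the locus and the later calls 24541 to 26494 bp. The strand changed as well, with 86.8% and 80.7% of BC hits on the plus strand and minus-strand calls in 5 of the 6 later libraries. The levels of BC and later libraries at such loci are sums over calls of unequal length.

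The locus chr28:43025-86677, next to MVP, the major vault protein gene, was the highest member in E14G1 and E14G2 after chr4:20777501-20788991. It had 246 and 81.6 RPM in BC, 1624 and 994 in E7PGC, 5618 and 8045 in E11G, and 6787 and 9506 in E14G. Its 1T share was 90.8% and 92.7% in BC with 10A at 9.4% and 9.0%, and later libraries had 57.4% to 65.0% 1T and 42.5% to 54.9% 10A. The locus chr1:192821320-192877904 was called over 3069 and 4813 bp in BC and over 48616 to 55821 bp later. There the BC calls were mono-directional on the minus strand and all later calls were dual-stranded, with 120 and 91.1 RPM in BC and 1713 to 7428 RPM later.

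Other members that led the later stages differed in base pattern. At chr4:20777501-20788991 the level was 796 and 718 RPM in BC, 2710 and 2141 in E7PGC, 7385 and 14282 in E11G, and 6865 and 10144 in E14G, all on the minus strand. It combined a 1T share of 65.2% to 89.5% with a 10A share of 61.0% to 88.2%. The locus chr4:13737012-13753563, which overlaps TMEM164, had 1T shares of 3.9% to 35.8% in all clusters but 1, a plus-strand cluster in E7PGC2 with 70.4%. It had 1218 and 1262 RPM in BC, 7738 and 10944 in E7PGC, 8571 and 9394 in E11G, and 2976 and 5218 in E14G. Its minus-strand cluster in E7PGC2 held 10612 RPM at 408 normalized reads per hit, with 1T at 3.9%.

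The remaining leaders were chr14:14309551-14332693 and chr5:53849008-53885999. The former, near the mitochondrial ribosomal gene MRPS34, had 117 and 148 RPM in BC, where it was dual-stranded, and 4408 and 4079 in E7PGC, where it was on the plus strand. In the gonads it had 2912 and 3163 RPM in E11G and 1473 and 2266 in E14G, also on the plus strand. The latter had 346 and 239 RPM in BC and 2292 to 6501 RPM in the 6 later libraries. Its BC calls of 4474 and 4216 bp were mono-directional and its later calls of 29849 to 36992 bp were dual-stranded.

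Between BC and the gonads, 72 of the 185 members called in a gonad library were within 2-fold, beside 135 of 515 loci of the series. Among the 41 members called in all 8 libraries, the most even was chr3:77740224-77748774, whose highest library was 2.75-fold above its lowest. Next was chr1:154748853-154764783, at 3.05-fold. The former had 230 and 209 RPM in BC, 129 and 83.6 in E7PGC, 142 and 230 in E11G, and 144 and 186 in E14G. An even sum could cover different stretches. In E7PGC2, E11G1, E11G2 and E14G2 the second locus was called only over 4966 to 5470 bp at its end, where 10A was 67.9% to 94.4%. In E14G1 it was called over its first 6164 bp, where 10A was 14.8%.

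**Figure D2:**
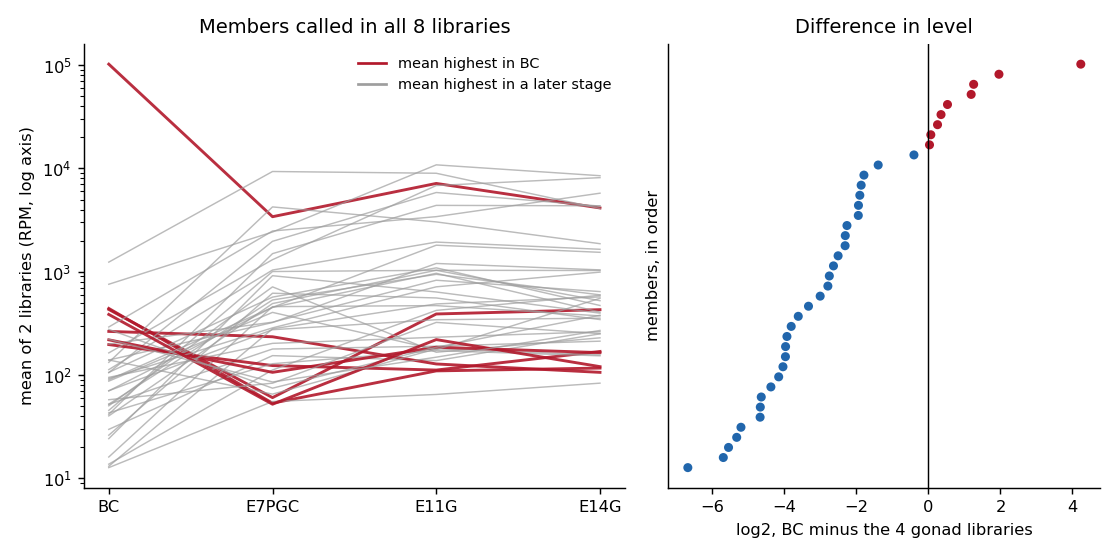
Left, the stage means (RPM on a log axis) of the 41 members called in all 8 libraries are joined over the 4 stages, in red for the 7 whose mean was highest in BC. Right, each of these members is placed by its log2 difference between BC and the 4 gonad libraries, in order, and 9 lie above 0 in RPM and 24 with equal medians.

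A set of 28 members had nearly the same profile at places on 11 chromosomes. These were chosen after their values were seen, as members whose RPM lay within 1.5-fold and whose 1T and 10A shares lay within 8 percentage points of a central member, chr3:64763971-64769751, in both BC libraries. In BC1 they ranged from 91.4 to 159 RPM around a median of 123 RPM, and in BC2 from 97.0 to 158 RPM around 131 RPM. The grouping did not use later libraries. All 28 were called in both E7PGC libraries, at medians of 233.7 and 230.6 RPM and in ranges of 122 to 506 and 91.4 to 521 RPM. E11G2 called 26 of them at a median of 71.8 RPM, E11G1 called 3, and neither E14G library called any.

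The strand pattern of this set differed between stages. In BC 20 of the 28 clusters were dual-stranded and 8 bi-directional in BC1, and 26 were dual-stranded in BC2. In E7PGC 26 and 27 of the 28 were mono-directional, 14 of them on the plus strand in each library. In E11G2, 26 of the 27 clusters were dual-stranded. The median 1T share was 43.4% and 42.0% in BC, 72.1% and 68.6% in E7PGC and 65.2% in E11G2, and the median 10A share was 52.0%, 46.9%, 73.2%, 68.2% and 45.2%. A read with several genomic places is divided among them in these lists, so members that share sequences share values, and the 28 do not count as separate observations. Whether they share a sequence was not analysed here, since no genome was used.

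A second such set of 9 members on 4 chromosomes, around chr1:152170335-152173596, went the other way. It had medians of 41.7 and 46.1 RPM in BC, all mono-directional, with 10A at 86.5% and 74.6%. E14G2 called all 9 at a median of 78.5 RPM, 7 of them dual-stranded, and E14G1 called 4. In E7PGC and E11G a single one of the 9 was called, chr2:132409191-132421159.

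The order of the members by level was kept within a stage and between the gonad stages, and much less from BC onwards. Across members called in both libraries of a pair, Spearman's rho was 0.874 to 0.925 within a stage over 70 to 182 members, and 0.823 to 0.916 between E11G and E14G over 61 to 89. It was 0.322 to 0.819 between E7PGC and the gonads over 54 to 111 members. It was 0.031 to 0.117 between BC and E7PGC over 132 to 135 members, and -0.15 to 0.24 between BC and the gonads over 74 to 144. Over the 41 members called everywhere the ranges were -0.0017 to 0.066 for BC with E7PGC and 0.09 to 0.21 for BC with the gonads. These are descriptions across loci, which share reads within families and are not independent.

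Where a member was mono-directional in both libraries of a pair, its strand was mostly the same. Members that were dual-stranded or bi-directional in either library are left out of this count, which kept 42 to 47 of the 132 to 135 members called in both BC and E7PGC libraries and 32 to 57 of the 74 to 144 called in both BC and gonad libraries. All members so kept were on the same strand within a stage and between E11G and E14G, or 100% in each pair. The share was 91.7% to 100% between E7PGC and the gonads, 81.3% to 93.2% between BC and the gonads, and 76.7% to 81.0% between BC and E7PGC. Over stages, 13 of 59 comparable members were on opposite strands in BC and E7PGC, 11 of 93 in BC and the gonads, and 6 of 66 in E7PGC and the gonads. Opposite to BC in both E7PGC and the gonads were 6 members. One was chr1:67318408-67331008, on the plus strand in BC at 27.7 and 32.0 RPM and on the minus strand in E7PGC at 186 and 122 RPM. The others were chr1:54773039-54799945, chr1:67146654-67163495, chr1:142688922-142693738, chr20:123314-139886 and chr6:35392080-35406083, of which the last had no call in BC1, nor had the one on chromosome 20. At the locus on chromosome 20 the BC2 call began at 136663, and the plus-strand later calls ended at 134590 or before. The strands compared there lie on different stretches. The strand counts did not ask that the calls compared overlap.

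**Figure D3:**
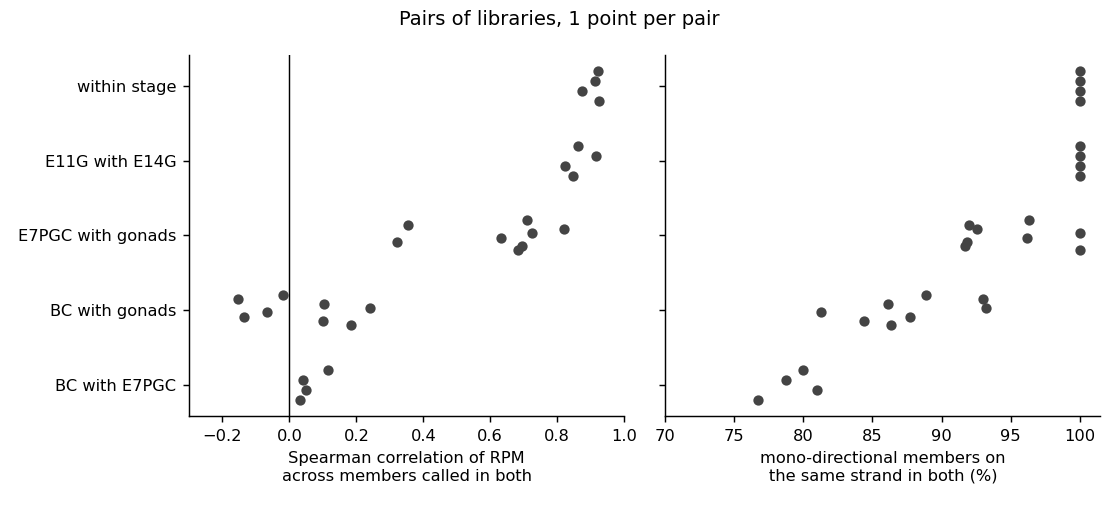
Each point is a pair of libraries, grouped by the stages paired. Left, Spearman's correlation of RPM across members called in both lies near 0 for pairs with BC and above 0.8 within a stage and within the gonads, and right, the share of mono-directional members on the same strand falls to 76.7% for a BC and E7PGC pair.

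The members' base and strand shares were set against those of the other autosomal loci within each library, as medians over clusters, and tested by an exact two-sided sign-flip permutation over the 8 libraries, for which the smallest possible p is 0.0078125. Libraries of a stage share loci and gonad libraries also share breeds, so the 8 are not independent units and these p-values may be too small. The 1T share was higher in members in 7 of 8 libraries, by a mean of 2.98 percentage points (SD 2.93), with exact p = 0.03125 and 0.0703 after Benjamini-Hochberg adjustment over the 3 shares. The share on the main strand was lower in 6 of 8 libraries, with a mean difference of -4.94 points (SD 4.90), exact p = 0.0469 and adjusted 0.0703. The 10A share differed by 0.64 points (SD 4.61), with exact p = 0.672. None passed the adjusted threshold. The main strand difference turned positive, at 5.97 points, when clusters were weighted by their hits.

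The libraries showed where the medians lay. In BC1 and BC2 the median 1T share of members was 63.2% and 62.1%, and 56.5% and 64.7% at the other autosomal loci. The median 10A share of members was 47.9% and 45.9% in BC, 49.8% and 49.5% in E7PGC, and 41.7% to 42.9% in the gonads. Weighted by hits, the picture in BC is that of its richest loci. The members' weighted main strand share was 98.9% and 98.8% in BC against 80.1% to 85.5% later, their 1T share 71.2% and 70.6% against 52.4% to 60.0%, and their 10A share 28.7% and 26.1% against 46.6% to 51.3%. Dual-strand clusters made up 21.7% and 26.0% of member clusters in BC, and 9.63% and 10.98% of the other autosomal clusters there. The order was the opposite in E7PGC, with 24.7% and 21.1% in members and 27.2% and 30.8% in the others. In E11G the shares were 37.2% and 33.1% in members and 28.9% and 17.3% in the others, and in E14G 36.4% and 33.3% against 34.95% and 22.7%.

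**Figure D4:**
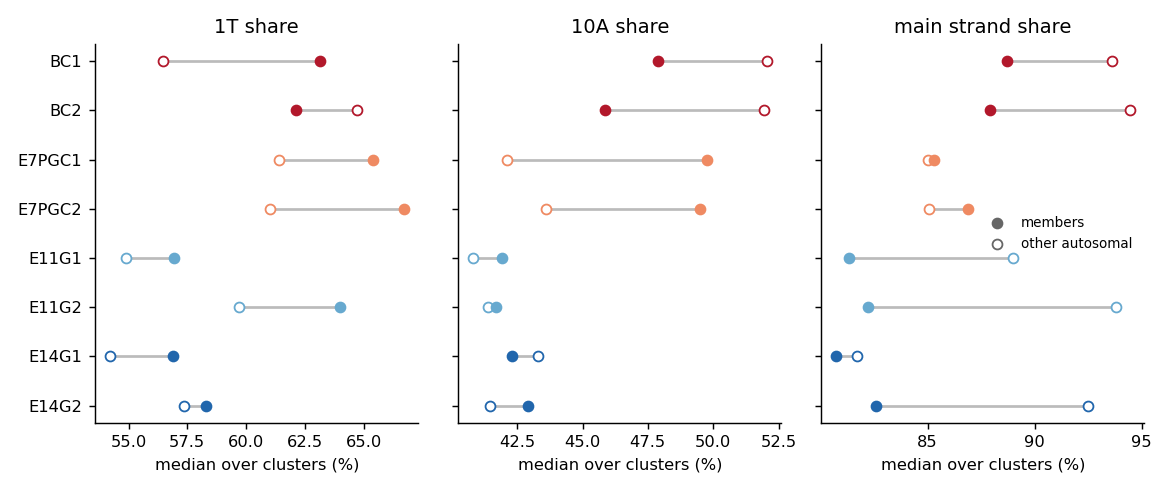
For each library, the median 1T, 10A and main strand shares (percent) of member clusters (filled) are joined to those of other autosomal clusters (open). Members lie to the right for 1T in 7 of 8 libraries and to the left for the main strand in 6 of 8.

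Between later stages, levels were tested by limma on log2(RPM + 1) over every locus of the series that all libraries compared had called, and p-values were adjusted by Benjamini-Hochberg. The rule did not use these contrasts. From E11G to E14G, where 58 members could be tested, none passed (0.0% of 816 loci), with a smallest adjusted p of 0.120 over all loci. At an unadjusted p under 0.05 there were 11 members and 247 loci. The breed is shared by the replicate numbers in both stages. With it as a block 19 members passed, 9 higher and 10 lower in E14G, where 50.6% of all loci did (16.4% higher). The block leaves little in each locus to estimate its own spread, so blocked p-values rest mostly on the spread pooled over loci. The members' median log2 difference was -0.03, beside -0.30 over all loci. In both breeds alike, 8 members were over 1.5-fold higher in E14G (14.1% of all loci) and 6 over 1.5-fold lower (22.9%).

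The largest rises among the members tested were at chr4:18775355-18809483, chr26:5254137-5285796 and chr20:123314-139886. The first had 115 and 238 RPM in E11G and 540 and 568 RPM in E14G, so that its groups did not overlap. Its log2 difference was 1.74 (SE 0.41), with limma adjusted p = 0.131 without the block and 0.0014 with it. The sums compared there cover unequal lengths. E11G1 called 8642 bp and E11G2 13733 and 6737 bp, while E14G1 called 16847 and 7558 bp and E14G2 17662 and 9016 bp. The second had 338 and 226 RPM in E11G and 1092 and 551 in E14G. Its log2 difference was 1.48 (SE 0.42), with limma adjusted p = 0.133 and, blocked, 0.0015. Its calls also differed in length, with 8559 and 9650 bp in E11G1, 12882 and 4834 bp in E11G2, 27002 bp in E14G1 and 23947 bp in E14G2. The third had 179 and 78.6 RPM in E11G and 396 and 178 RPM in E14G, where the groups overlapped and each breed was higher in E14G. Its difference was 1.15 (SE 0.56), with adjusted p = 0.212 and, blocked, 0.0029.

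The largest falls were at the members over ERNI and ENS-1 and at chr4:13737012-13753563. Their limma log2 differences were -1.22 (SE 0.29), -1.17 (SE 0.30) and -1.19 (SE 0.35), with adjusted p of 0.131, 0.133 and 0.133, and 0.0034, 0.0040 and 0.0016 with the block. At all 3 both E14G libraries lay below both E11G libraries. The members over ERNI and ENS-1 belong to a set of 6 with alike BC profiles, which also holds chr1:192821320-192877904, and may share reads, so they do not count as separate observations.

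Against E7PGC the differences were larger. In E11G 19 of 59 members passed (18.3% of 851 loci), 14 higher (11.6% of all loci) and 5 lower, with a median log2 difference of 0.41 beside 0.07 over all loci. Among the lower ones, chr3:2521267-2532428, chr4:23452263-23458492 and chr6:19462318-19468137 belong to the 28 alike members and do not count as separate observations. The E11G calls, of members and of all loci, did not hold when either E11G library was left out, which leaves 1 library in a group. The members' median log2 difference was 0.15 without E11G replicate 1 and 0.45 without E11G replicate 2. Over all loci it was -0.04 and 0.0057. In E14G 22 of 50 members passed (41.7% of 746 loci), 18 higher (19.7%) and 4 lower, with a median of 0.68 beside 0.08. Fewer members and fewer loci passed without E7PGC replicate 2 or without either E14G library, which leaves 1 library in a group. The members' median was 0.58 without E7PGC replicate 2, and 0.32 and 0.79 without E14G replicate 1 or 2. Over all loci it was 0.17, 0.0018 and 0.15. Both comparisons use the same E7PGC libraries, and culture and breed differ with stage.

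The locus with the largest rise in both was chr1:75305553-75329358, 213 kb from TEAD4, a Hippo pathway transcription factor gene. It had 482 and 381 RPM in BC, 68.4 and 52.7 in E7PGC, 405 and 376 in E11G, and 442 and 418 in E14G. In RPM E7PGC was thus lowest, and BC and the gonads overlapped. The log2 difference from E7PGC was 2.68 (SE 0.36, limma adjusted p = 0.0212) in E11G and 2.82 (SE 0.36, adjusted p = 0.0089) in E14G. In E7PGC 7453 and 6407 bp of the locus was called, and 16483 to 23797 bp in the other libraries.

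Other rises were at chr28:43025-86677, chr4:20777501-20788991 and chr2:53007130-53030027. At chr28:43025-86677 the difference was 2.40 (SE 0.37, limma adjusted p = 0.0212) in E11G and 2.66 (SE 0.40, adjusted p = 0.0089) in E14G. At chr4:20777501-20788991 it was 2.09 (SE 0.39, adjusted p = 0.0218) in E11G. The locus chr2:53007130-53030027 had 138 and 86.0 RPM in E7PGC, 478 and 367 RPM in E11G and 606 and 578 RPM in E14G, a log2 difference of 2.43 (SE 0.40, adjusted p = 0.0093) in E14G. In BC it had 11.2 and 16.3 RPM on the minus strand, and it was on the plus strand in both E14G libraries. Its calls spanned 6885 and 8721 bp in E7PGC1, 8193 bp in E7PGC2, 22327 bp in E14G1 and 21712 bp in E14G2. The sums compared there thus cover unequal lengths.

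Falls from E7PGC to E11G were led by chr3:2521267-2532428, within RTN4, which encodes the reticulon Nogo, and included chr6:19462318-19468137. Both belong to the 28 alike members. The former had 506 and 521 RPM in E7PGC and 69.8 and 103 in E11G, a log2 difference of -2.58 (SE 0.39, limma adjusted p = 0.0212), and was not called in E14G. The latter had 245 and 254 RPM in E7PGC and 59.3 and 78.4 in E11G, a difference of -1.86 (SE 0.34, adjusted p = 0.0212).

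The locus chr22:2293-30998, at the start of its chromosome, fell from 625 and 803 RPM in E7PGC to 146 and 187 RPM in E11G and 260 and 198 RPM in E14G. The differences were -2.09 (SE 0.36, limma adjusted p = 0.0212) and -1.64 (SE 0.38, adjusted p = 0.0199). These levels are sums over calls of unequal length. E7PGC1 called 18704 and 8610 bp of this locus and E7PGC2 27579 bp, while single calls spanned 4210 to 7781 bp in E11G and 8271 to 8924 bp in E14G. Per kb the calls held 17.3 to 35.1 RPM in E7PGC, 14.6 to 18.1 in E11G and 10.8 to 20.3 in E14G. Among members that passed in E14G, falls of -1.21 (SE 0.37, adjusted p = 0.0384) at chr14:14309551-14332693 and -1.20 (SE 0.35, adjusted p = 0.0337) at chr20:5677033-5695885 followed. At chr4:13737012-13753563 the difference was -1.22 (SE 0.41), which did not pass (limma adjusted p = 0.0508). The locus chr20:5677033-5695885 had 861 and 970 RPM in E7PGC, 621 and 653 in E11G, 424 and 371 in E14G, and 25.2 and 23.3 in BC.

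The RNA-seq table gave a readout that the rule did not use. Of its transcripts, 374 overlapped 128 members by at least 1 bp of their deposited span, without regard to strand. Of these transcripts, 158, over 91 members, reached 1 FPKM in a library. From BC to E11G 136 of these 158 passed limma on log2(FPKM + 1), 57 higher (38.0% of all transcripts) and 79 lower (40.4%), where 78.3% of all 22368 transcripts passed in either direction. From E11G to E14G 3 of 158 passed, where 3.84% of all did. Markers of cell types differed with stage in the same RNA-seq libraries. The Sertoli markers AMH, SOX9, DMRT1 and WT1 summed to 25.0 and 29.2 FPKM in BC and 3092 to 4873 FPKM in the gonads, and all 4 passed upward in E11G. The germ cell markers DDX4, DAZL and PIWIL1 summed to 17.1 and 19.2 FPKM in BC and 89.4 to 110 FPKM in the gonads, and all 3 rose. From BC to E11G all 5 blood markers tested rose and all 6 blastoderm markers fell. The blood markers summed to 7.88 to 8.12 FPKM in BC, 1761 to 1937 FPKM in E11G and 2269.8 to 2717 FPKM in E14G, although the hemoglobin gene HBE, at 5.84 and 6.18 FPKM in BC, was at 3.05 and 2.18 FPKM in E14G. From E11G to E14G 2 of the 5 blood markers and 3 of the 6 blastoderm markers fell. Their part in the transcript differences was not tested. Of 24 piRNA pathway genes, 6 were matched in the table, of which 4 were higher in E11G than in BC, 1 was lower and none passed between E11G and E14G. PIWIL1, a PIWI protein gene, had 1.80 and 1.99 FPKM in BC and 21.8 and 13.5 in E11G, and the helicase gene DDX4 had 5.27 and 5.68 FPKM in BC and 22.6 and 17.6 in E11G. ASZ1 and the piRNA methyltransferase gene HENMT1 were the others that rose, and TDRD3, at 41.1 and 42.9 FPKM in BC and 27.8 and 30.6 in E11G, fell.

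Among transcripts over members with a gene symbol, the largest falls were at ERNI and ENS-1. Of the 158 transcripts at 1 FPKM or more, 24 had a symbol, and the others were not ranked. ERNI and ENS-1 are genes of the early chicken embryo known from neural induction and from embryonic stem cells. ERNI had 86.8 and 78.7 FPKM in BC, 0.317 and 0.281 in E11G and 0.044 and 0.030 in E14G. Its log2 difference from BC to E11G was -6.01 (SE 0.095, limma adjusted p = 5.2e-06). ENS-1 had 7.63 and 5.07 FPKM in BC and was at or below 0.013 FPKM in every gonad library, with a log2 difference of -2.85 (SE 0.18, limma adjusted p = 8.0e-05). Both are known as copies of 1 retrovirus-like family, so their reads may be shared and each gene's own level is uncertain.

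The piRNAs at these members were lower in BC than later in RPM, where the transcripts were higher. The member over ENS-1, chr2:36379285-36383888, had 91.9 and 121 RPM in BC, 640 and 497 in E7PGC, 1325 and 858 in E11G, and 473 and 470 in E14G. The member within the ERNI span, chr5:53685928-53690488, had 87.1 and 92.8 RPM in BC, 514 and 391 in E7PGC, 1140 and 793 in E11G, and 397 and 418 in E14G. At both, BC was below all 6 later libraries and E11G was highest in RPM. From E11G to E14G the piRNAs at both members were lower, which passed only with the block. The ERNI transcript had low means of 0.299 FPKM in E11G and 0.037 in E14G. Its fall did not pass (log2 -0.325, SE 0.095, limma adjusted p = 0.127). The ENS-1 transcript, at means of 0.0067 and 0.0062 FPKM, hardly changed. The order of BC depended on the scale. With libraries scaled to an equal median over loci called in all 8, the member over ENS-1 was at 441 and 669 in BC, 333 and 245 in E7PGC, 703 and 416 in E11G, and 386 and 327 in E14G, so that BC lay above E7PGC and E14G. The log2 difference between BC and the gonads turned from -2.75 to 0.31 there and from -2.79 to 0.27 at the member within the ERNI span. The transcripts came from JA57 chickens and the piRNAs from other breeds, and 7.42% of the ERNI span lies in the member, whereas ENS-1 lies wholly inside.

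**Figure D5:**
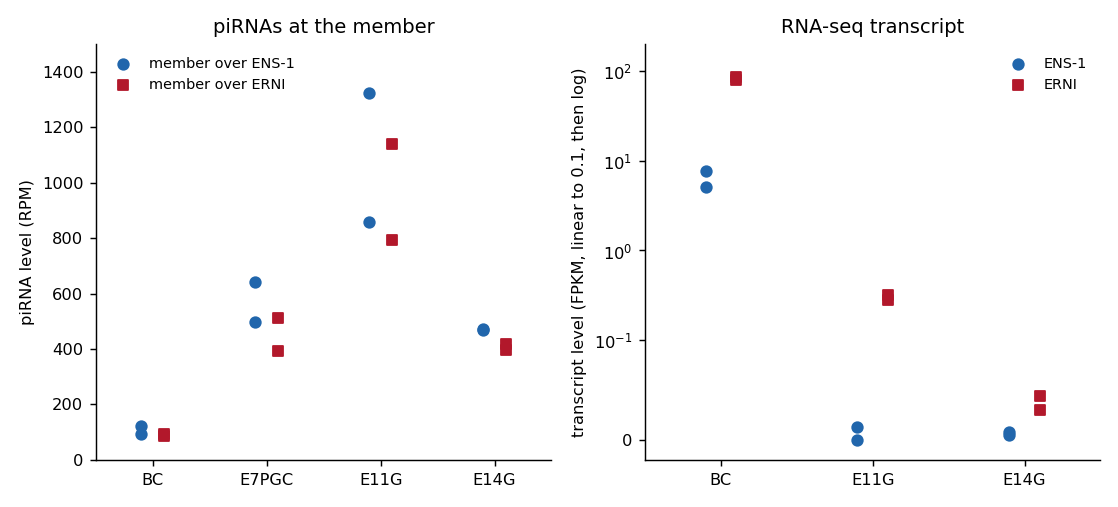
Left, the piRNA level (RPM) of the members over ENS-1 and ERNI is plotted for the 2 libraries of each stage, lowest in BC and highest in E11G in RPM, an order that changes with equal medians. Right, the RNA-seq level (FPKM, linear to 0.1 and then logarithmic) of ENS-1 and ERNI falls from 5.07 to 86.8 FPKM in BC to below 0.4 FPKM in E11G and E14G.

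Other genes over members changed in both directions. RTN4 had 1 transcript that rose from 9.20 and 7.92 FPKM in BC to 26.8 and 28.9 in E11G and 47.4 and 42.8 in E14G, and another that fell from 33.0 and 35.8 FPKM to 11.1 and 10.1 in E11G. The former was the single upward call from E11G to E14G, with a log2 difference of 0.67 (SE 0.10, limma adjusted p = 0.0386), which was lost when any 1 library was left out among BC replicates 1 and 2, E11G replicates 1 and 2 and E14G replicate 2. From BC to E11G rises were also seen at KLF6, a zinc finger factor gene (1.96, SE 0.085), IDS, for a lysosomal sulfatase (1.78, SE 0.12), DIO3, for an enzyme that inactivates thyroid hormone (1.42, SE 0.17), and MTMR2 (1.17, SE 0.086). Falls were seen at ANO3 (-1.91, SE 0.14) and the nuclear receptor gene NR1D2 (-1.71, SE 0.087). All passed limma in log2 units over 2 libraries each.

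Several of these genes share only a small part of their span with a member. KLF6 and MTMR2 touch their member at an edge, whereas at DIO3 and ANO3 the member lies inside the span. Of the deposited spans, the member covers 0.647% for KLF6, 0.844% for DIO3, 3.47% for MTMR2 and 2.27% for ANO3, but 53.6% for IDS. Both RTN4 transcripts have the same 62.7 kb span, so a deposited span may be wider than its transcript. Among the most highly expressed transcripts over members with a gene symbol was SELENOI, for a phospholipid enzyme. It had 35.5 and 37.0 FPKM in BC and 14.1 and 12.4 in E11G. ATRIP, whose product partners the checkpoint kinase ATR, had 36.2 and 35.3 FPKM in BC and 15.5 and 15.4 in E11G. FIBIN lies wholly in chr5:3460482-3485365 and had 36.6 and 38.8 FPKM in BC and 15.1 and 14.1 in E11G. SHISA5 had 28.6 and 29.2 FPKM in BC and 41.6 and 38.6 in E11G.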

How the data were processed

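For each of the 8 small RNA libraries the authors deposited a list of piRNA clusters, called by an adapted proTRAC on galGal5 after removal of other small RNAs. Its normalized hits are scores in RPM, reads divided by their genomic places and scaled to the list's reads, and other deposited columns give percentages of these hits and counts of hits of distinct sequences. The headers of the E7PGC lists name E6PGC, and the stage is that of the labels. The deposited RNA-seq values are FPKM of 6 libraries, made by the authors with TopHat2, Cufflinks and cuffnorm, and their depth is unknown.

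Clusters were merged at 1 bp of overlap. Members and gene lists were chosen with earlier results of these data known. Named members are the 4 highest per stage, the 3 largest and 3 smallest BC-to-gonad differences and the 2 most even among members called in all 8 libraries, the locus near TEAD4, and the 3 largest rises and falls per comparison. Named genes were taken from the transcripts over members with a gene symbol, as the 8 highest and the largest changes. Levels were compared with limma 3.58.1 in R 4.3.3 on log2(value + 1), at an adjusted p of 0.05, with transcripts at 1 FPKM or more in a library. The programs were tested on simulated data. Replicate numbers of E11G and E14G stand for the same breed in the labels, and the difference between replicates correlated between these stages (r = 0.617 across 816 loci), so the block is given beside that comparison. Symbols of 6731 of 42501 transcripts were matched through RefSeq. The limma p-values rest on 2 libraries per group and on a spread that limma moderates over all loci or transcripts tested. This spread may be technical in part. In E11G and E14G the 2 small RNA libraries of a stage also differ in breed and sequencer. Intervals for counting error were not computed.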

Additional observations from a re-analysis of the deposited data

Results flagged for a closer look

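At 4 of the named members the change from E11G to E14G had opposite signs in the 2 breeds, with 1 library per breed and stage. Signs were opposite at 17 of the 58 members tested and 125 of all 816 loci, and at 0 of either were both changes over 1.5-fold. At chr1:54773039-54799945 the log2 difference was -0.104 in Cobb 500 and 0.0465 in Leghorn. At chr1:154179973-154185999 it was 0.281 in Cobb 500 and -0.0545 in Leghorn. At chr1:154748853-154764783 it was 0.0661 and -0.602, and there the 2 breeds' E14G calls covered different ends of the locus. At chr3:77740224-77748774 it was 0.0133 and -0.301. The difference between the breeds was not tested, and breed goes with the sequencer.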

How the results depend on the processing

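The rule found 214 to 194 members when a library was left out, 109 with a common minimum density and 141 with calls in both BC libraries and both libraries of a later stage. The BC median of -0.45 against the gonads turned to 3.09 with uncalled loci at 0, 2.49 with equal medians and 0.53 with a common minimum density, and ran from -0.90, without E11G replicate 2, to -0.26 over the other libraries left out. With equal medians chr4:13737012-13753563 turned to 0.80, chr2:36379285-36383888 to 0.31 and chr5:53685928-53690488 to 0.27. The median of the members called in all 8 libraries, which are among the loci that set the equal medians, turned to 0.42. Per kb of call chr1:154748853-154764783 turned to -0.22.

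For E14G against E11G, 23 of 185 members passed the threshold with uncalled loci at 0, beside 13.2% of all loci. With the replicate block 19 of 58 passed (50.6% of all loci), and with the block and median scaling 23 of 58 (44.4%). With a library left out, the members' median log2 difference ran from -0.17 to -0.03. For E11G against E7PGC 57 of 195 members passed with uncalled loci at 0 (34.6% of all loci) and 7 of 18 with a common minimum density (17.4%). With the replicate block 9 of 59 passed (7.76% of all loci), and with the block and median scaling 6 of 59 (5.88%). With a library left out, the members' median log2 difference ran from 0.15 to 0.60. In the comparisons with E7PGC the replicate numbers share nothing but a number (r of 0.153 and 0.191 across loci). For E14G against E7PGC there were 84 with uncalled loci at 0, 10 with a common minimum density, 28 with the replicate block (52.4% of all loci) and 4 to 22 with a library left out.

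The 1T difference shrank to 0.03 points with a common minimum density, where 5 of 8 libraries were higher. Weighted by hits it was 0.95 points (adjusted exact p = 0.680), and against other loci of the whole series 2 points (adjusted exact p = 0.0625). Without BC replicate 2 it was 3.77 points (adjusted exact p = 0.0469), and it ran from 2.44 to 3.77 over libraries left out. The 10A difference turned to -1.54 (adjusted exact p = 0.0234) against other loci of the whole series and ran from -0.36 to 1.61. The main strand difference turned to 5.97 (adjusted exact p = 0.0234) when weighted by hits and to 3.73 (adjusted exact p = 0.0352) against the whole series, was -6.28 (adjusted exact p = 0.0469) with a common minimum density, and ran from -5.91 to -3.99.

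Transcripts past the threshold from BC to E11G numbered 90 of 99 at 5 FPKM, where 82.8% of all transcripts passed. With most of the span inside the member 42 of 49 passed, beside 78.3% of all transcripts. With a library left out, the median log2 difference of the transcripts over members ran from -0.52 to -0.40. From E11G to E14G 3 of 158 passed as tested above (3.84% of all transcripts). They numbered 6 of 158 with a pseudocount of 0.1 (2.79%), 7 of 314 with any value above 0 (2.13%) and 6 of 158 with median scaling (4.85%). Of those with most of the span inside the member, 0 of 49 passed (3.84% of all transcripts). The median log2 difference of the transcripts over members ran from -0.024 to 0 with a library left out. No paired analysis was possible because RNA-seq replicates are numbered by accession order. The causes of these shifts were not tested. The shallow first gonad libraries and the unequal density thresholds limit what was called.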
